A study of Mus musculus with 50 samples.

Results

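The 10 genes described here are markers of the compartments and minor neuron types of the striatum, taken by symbol as known markers of striosome, matrix, core or shell and minor spiny neurons, and they are 10 of the 24552 genes listed in the count tables. They were followed in nucleus accumbens (NAc) tissue of C57BL/6 mice carrying RiboTag (RT), in which Cre adds an HA tag to a ribosomal protein, so that RNA bound to the ribosomes of the Cre-expressing cells can be precipitated (IP) and compared with the total RNA of the same lysate (input). Cre came from BAC transgenes, line FK150 for D1-Cre and line ER44 for D2-Cre, and marks every cell in which the transgene is on, not one kind of medium spiny neuron (MSN) alone. The male mice, 8 to 12 weeks old, were either controls housed with their own strain (Con) or had met aggressive CD1 mice daily for up to 10 days of chronic social defeat and were then sorted by a social interaction test into resilient (Res) and susceptible (Sus) animals. Each library held the pooled punches of 2 mice. D1-IPs comprised 4 Con, 4 Res and 5 Sus libraries, D2-IPs comprised 5 of each, and inputs comprised 3 of each in both lines. A further 4 IP libraries came from undefeated males of the genotype RT; Sirt1-floxed; D1-Cre, labelled Sirt1-KO, whose age is not given in the labels, and were compared with the 4 D1 Con IPs.

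The striatum is built from a patchwork of 2 compartments, striosomes (also called patches) and the surrounding matrix, which differ in their inputs and outputs and each hold D1- and D2-MSNs. The accumbens is further divided into core and shell, and many genes change gradually from its dorsal to its ventral side. Beside the common MSNs, single-cell surveys have described small spiny neuron types, among them the eccentric ones. Among the 10 genes, *Kremen1* (a receptor for the Wnt inhibitor Dickkopf), *Lypd1* (a membrane-anchored modulator of nicotinic receptors), *Tshz1* (a zinc finger transcription factor) and *Rasgrp1* (a calcium- and diacylglycerol-regulated activator of Ras) are used as striosome markers. *Calb1* (the calcium buffer calbindin), *Rasgrp2* (a calcium-regulated activator of Rap) and *Id4* (an inhibitor of basic helix-loop-helix transcription factors) are used as matrix markers. *Crym* (mu-crystallin, which binds thyroid hormone) marks a gradient across the striatum, and *Otof* (otoferlin, a calcium sensor of vesicle release) and *Casz1* (a zinc finger transcription factor) mark eccentric and other minor MSN types.

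Depth ran from 21591075 to 31009626 counts on genes in the 28 IPs and from 18384265 to 28179940 in the 18 inputs. As a check of the labels, 4 of 4 D1-MSN markers (*Drd1*, *Pdyn*, *Tac1*, *Isl1*) were higher in D1-IPs and 4 of 4 D2-MSN markers (*Drd2*, *Adora2a*, *Penk*, *Gpr6*) were higher in D2-IPs, but the D2 list was not absent from D1-IPs: its summed level was 2061 to 3470.2 counts per 1000000 library counts (CPM, scaled by trimmed mean of M values within each table) in D1-IPs, 5646 to 7998 in D2-IPs and 776 to 1324 in inputs. Cortical and glutamatergic genes (5 of 6 higher in D1-IPs, among them *Slc17a7*, the vesicular glutamate transporter) summed to 422 to 1416 CPM in D1-IPs against 60.5 to 334 in D2-IPs, and cholinergic genes (3 of 4 lower in D1-IPs, among them *Chat*, the acetylcholine-synthesizing enzyme) to 7.62 to 29.1 against 56.2 to 121. Astrocyte genes summed to 45.7 to 92.2 CPM in D1-IPs, 36.5 to 62.4 in D2-IPs and 775 to 988 in inputs. The D1-IP and D2-IP comparisons below share these differences, whose part in the values of the 10 genes was not tested. In bulk RNA, fewer cells of a type and less RNA per cell cannot be told apart.

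All 10 genes passed the filter on low counts in every comparison, and their counts ran from 102 for *Casz1* in an input to 26233 for *Rasgrp1* in a D1-IP. Compared per length of the spliced transcript (CPM per kilobase), the order of the levels was nearly the same in both kinds of IP. The length was that of 1 transcript per gene, 1383 bases for *Crym* and 2296 for *Rasgrp2*. All merged exons span 3391 and 12384 bases, so the places of these genes depend on this choice. *Rasgrp1* was highest at 164 ± 10.1 CPM per kb (SD, n = 13) in D1-IPs and 163 ± 12.5 (SD, n = 15) in D2-IPs. *Crym* followed with means of 133 and 144 CPM per kb, *Calb1* with 72.00 and 75.5, and *Rasgrp2* with 55.6 and 74.5. *Rasgrp1* overlapped with *Crym*, and *Calb1* with *Rasgrp2*, across libraries of both kinds, so neither pair could be ordered. *Id4* had mean levels of 32.5 in D1-IPs and 43.8 in D2-IPs, *Lypd1* 23.5 and 29.5, and *Tshz1* 14.6 and 28.3 CPM per kb. *Tshz1* lay below *Lypd1* in D1-IPs without overlap, whereas the ranges of the 2 genes overlapped in D2-IPs. The 3 lowest genes were *Otof* (7.78 and 11.2), *Kremen1* (4.31 and 4.04) and *Casz1* (0.778 ± 0.131, SD, n = 13, and 1.76 ± 0.212, SD, n = 15), each apart from its neighbours. In the 18 inputs *Rasgrp2* stood above *Calb1* by its mean, 38.3 against 36.7 CPM per kb, with overlapping ranges.

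**Figure D1:**
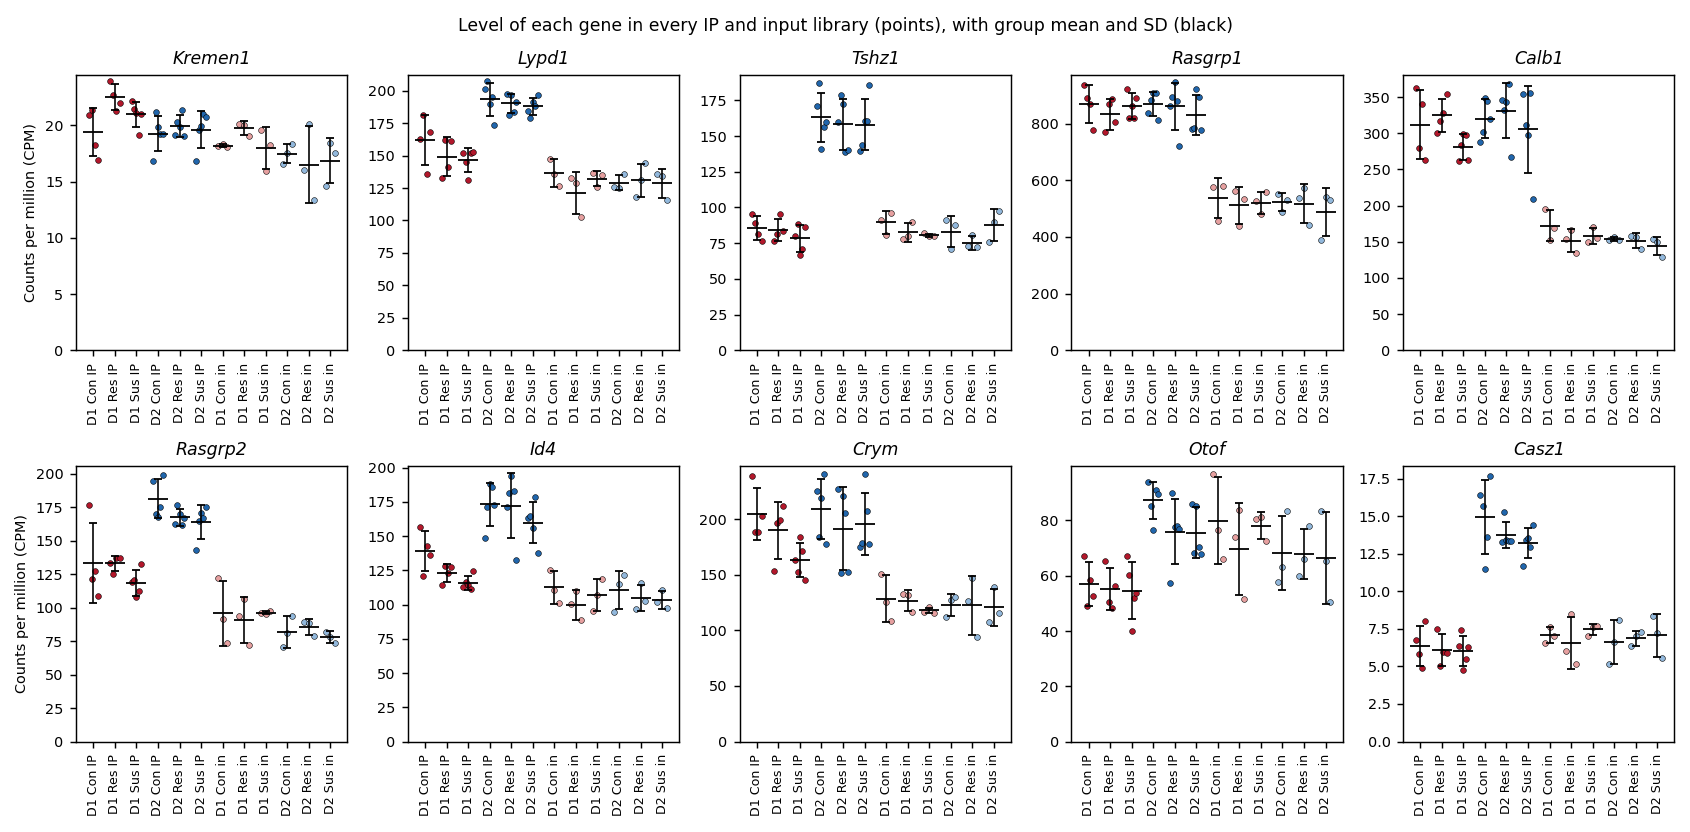
Level of each of the 10 genes (y axis, CPM, from 0) in every IP and input library (x axis, groups), with points for libraries and black marks for the group mean and SD. *Tshz1* and *Casz1* sit lower in all 13 D1-IPs than in all 15 D2-IPs and close to their input levels in D1-IPs, while *Rasgrp1* and *Calb1* sit above inputs in both kinds of IP.

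To find out whether these markers are carried equally by ribosomes of both Cre lines, D1-IPs were compared with D2-IPs over the mean of the 3 stress groups. Of the 10 genes, 2 passed a fold change over 1.5 with an adjusted p under 0.05 (edgeR quasi-likelihood test with Benjamini-Hochberg adjustment, used for every adjusted p in the IP and input comparisons here), the transcription factors *Tshz1* and *Casz1*, and both were lower in D1-IPs. Over all genes tested, 1089 of 14224 (7.66%) passed. No gene of the 10 was called higher in D1-IPs. A further 4, *Lypd1*, *Rasgrp2*, *Id4* and *Otof*, were lower in D1-IPs at an adjusted p under 0.05 but by less than 1.5-fold. At the adjusted p alone these made 6 of the 10, beside 40.8% of all genes. The median log2 fold change of the 10 was -0.38, beside -0.02 over all genes tested.

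*Casz1* showed the greatest difference of the 10. In D1-IPs it was at 6.74, 5.83, 4.87 and 8.04 CPM in Con, 7.50, 5.01, 5.98 and 5.89 in Res and 6.33, 7.41, 4.76, 5.48 and 6.28 in Sus. In D2-IPs it was at 16.4, 15.7, 11.5, 13.6 and 17.7 CPM in Con, 13.3, 15.3, 13.4, 13.3 and 13.4 in Res and 11.7, 13.4, 13.6, 12.97 and 14.5 in Sus. No D1-IP reached the lowest D2-IP, and the D1-IPs overlapped with the D1-line inputs (from 5.14 to 8.52 CPM with a median of 7.04). The log2 fold change of D1-IP over D2-IP was -1.19 ± 0.0785 (SE), adjusted p = 8.5e-13, which is 2.28-fold lower.

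*Tshz1*, listed as a striosome marker and known to label a group of D1-MSNs there, was also lower in D1-IPs. Its levels in D1-IPs were 95.6, 88.8, 81.4 and 76.7 CPM in Con, 76.4, 81.8, 95.3 and 83.2 in Res and 80.01, 88.5, 67.02, 70.9 and 86.2 in Sus. The D2-IPs held 171, 187, 141, 156 and 160.2 CPM in Con, 160.2, 179, 172, 139 and 140.3 in Res and 139.5, 144, 161, 160.2 and 186 in Sus, every one above every D1-IP. The difference was -0.96 ± 0.0552 (SE), adjusted p = 3.11e-14, or 1.95-fold lower in D1-IPs.

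Among the other genes used as striosome markers, only *Lypd1* passed the adjusted p. It ran from 131 to 182 CPM with a median of 152 in D1-IPs and from 174 to 207 CPM with a median of 191 in D2-IPs, with a log2 fold change of -0.34 ± 0.0388 (SE), adjusted p = 5.37e-08. Its ranges overlapped because 1 D1 Con library reached 182 CPM. *Kremen1* ran from 16.9 to 23.97 CPM with a median of 21.3 in D1-IPs and from 16.8 to 21.4 CPM with a median of 19.8 in D2-IPs (log2 fold change 0.08 ± 0.0434 (SE), adjusted p = 0.142). *Rasgrp1*, with the highest level of the 10, had mean levels of 855 ± 52.8 CPM (SD, n = 13) on D1 ribosomes and 854 ± 65.1 CPM (SD, n = 15) on D2 ribosomes, and its difference on the log2 scale was -0.01 ± 0.0385 (SE), adjusted p = 0.826. The 4 striosome markers thus did not move as a block: 1 was called lower, 1 was lower by less than 1.5-fold and 2 did not pass the test.

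The matrix markers also split. *Rasgrp2* ran from 108 to 177 CPM with a median of 125 in D1-IPs and from 143 to 199 CPM with a median of 170.2 in D2-IPs. Its log2 fold change was -0.43 ± 0.0515 (SE), adjusted p = 1.11e-07, and the overlap of the ranges came from 1 D1 Con library, at 177 CPM. *Id4* ran from 111 to 157 CPM with a median of 123 in D1-IPs and from 132 to 194 CPM with a median of 171 in D2-IPs, and differed by -0.44 ± 0.0489 (SE), adjusted p = 3.12e-08 on the log2 scale. *Calb1*, the classical matrix marker, ran from 262 to 363 CPM with a median of 299 in D1-IPs and from 209 to 367 CPM with a median of 332 in D2-IPs and did not pass (-0.08 ± 0.0638 (SE), adjusted p = 0.364). Thus 2 of the 3 matrix markers were lower in D1-IPs by less than 1.5-fold.

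The gradient marker *Crym* ran from 146 to 239 CPM with a median of 188 in D1-IPs and from 151 to 241 CPM with a median of 206 in D2-IPs, overlapping widely, with a log2 fold change of -0.11 ± 0.069 (SE), adjusted p = 0.189. *Otof* ran from 39.8 to 67.3 CPM with a median of 53.8 in D1-IPs and from 57.4 to 93.98 CPM with a median of 78.1 in D2-IPs. It was lower in D1-IPs by just under 1.5-fold (log2 fold change -0.53 ± 0.0714 (SE), adjusted p = 7.21e-07). Within the Con group alone the *Otof* difference was -0.63 ± 0.126 (SE), adjusted p = 0.000867, past the fold limit, with D1-IPs at 67.2, 49.03, 58.5 and 52.8 CPM and D2-IPs at 93.98, 85.4, 76.6, 91.1 and 89.6. Without D1 Con replicate 2 this value was -0.56 and under the limit.

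Compared inside each stress group, the direction was the same for every gene that passed. The call of *Tshz1* and *Casz1* was made in Con, Res and Sus, where 4.98%, 5.52% and 5.55% of 14224 genes passed, and *Otof* was called in Con. Without D1 Con replicate 1, *Rasgrp2* passed both limits in Con as well (-0.62). At the adjusted p alone 6 of the 10 passed in each group, beside 14%, 17.5% and 17.6% of all genes. The log2 fold change of *Tshz1* was -0.94 ± 0.0975 in Con, -0.92 ± 0.0975 in Res and -1.03 ± 0.0912 in Sus (SE). For *Casz1* it was -1.25 ± 0.138 in Con, -1.18 ± 0.139 in Res and -1.14 ± 0.13 in Sus (SE). The adjusted p of both was at most 6.56e-07 in each group.

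**Figure D2:**
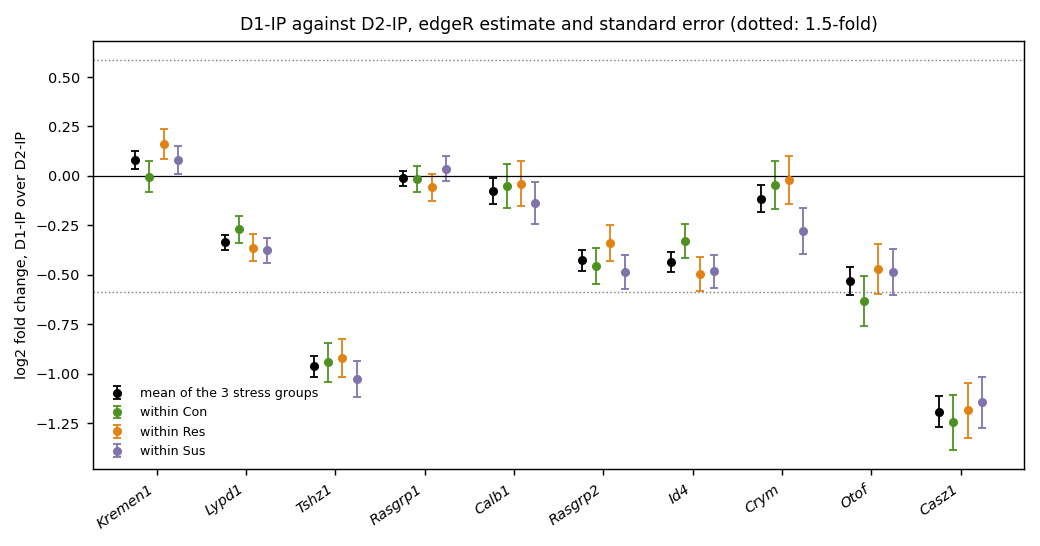
Log2 fold change of D1-IP over D2-IP (y axis) for each gene (x axis), as the mean of the 3 stress groups and within Con, Res and Sus, with bars for the standard error and dotted lines at 1.5-fold. *Tshz1* and *Casz1* lie below the lower line in every group, and *Kremen1*, *Rasgrp1* and *Calb1* lie near 0.

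Upstream sequences were held for 5 of the 10 genes (RefSeq, GRCm38.p6, 300 bases: 250 before and 50 from the start). For the 3 of these genes with the largest shift to D2-IPs the window nearest the annotated start is shown, so that these stretches can be read side by side. The start site of the window lay 37 bases from the annotated gene start for *Casz1*, 112 for *Id4* and 535 for *Rasgrp2*. The *Rasgrp2* window lies inside the annotated gene. Capitals mark GGGCGG on either strand, the GC box, which 35.7% of all 32851 windows hold.
Casz1, chr4:148804142-148804441, plus strand: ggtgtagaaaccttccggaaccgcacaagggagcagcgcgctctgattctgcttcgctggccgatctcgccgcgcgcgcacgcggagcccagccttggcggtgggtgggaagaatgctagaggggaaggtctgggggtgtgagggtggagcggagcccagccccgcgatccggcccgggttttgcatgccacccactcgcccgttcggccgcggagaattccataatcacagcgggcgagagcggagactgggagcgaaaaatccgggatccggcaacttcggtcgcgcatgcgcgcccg
Rasgrp2, chr19:6399625-6399924, plus strand: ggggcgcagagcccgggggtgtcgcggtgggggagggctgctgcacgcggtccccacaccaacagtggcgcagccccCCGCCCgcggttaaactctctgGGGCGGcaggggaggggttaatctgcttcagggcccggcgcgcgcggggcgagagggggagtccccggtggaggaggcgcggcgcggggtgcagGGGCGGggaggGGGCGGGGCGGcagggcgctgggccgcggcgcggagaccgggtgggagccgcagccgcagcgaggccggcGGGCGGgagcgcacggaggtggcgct
Id4, chr13:48260866-48261165, plus strand: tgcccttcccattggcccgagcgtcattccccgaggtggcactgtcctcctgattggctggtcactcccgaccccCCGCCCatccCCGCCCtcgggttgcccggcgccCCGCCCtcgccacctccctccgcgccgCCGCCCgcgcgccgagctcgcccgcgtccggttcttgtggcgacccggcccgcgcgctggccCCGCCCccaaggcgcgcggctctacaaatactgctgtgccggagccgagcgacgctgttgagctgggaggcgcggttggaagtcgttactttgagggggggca
The *Rasgrp2* window held 6 matches, the *Id4* window 5 and the *Casz1* window 0. TATAAA, the TATA box, searched on both strands, was in none of the 3, and 13.6% of all windows hold it. GC made up 67.00% of the *Casz1* window, 80.0% of the *Rasgrp2* window and 73.3% of the *Id4* window. In the annotation (GENCODE vM21, GRCm38), *Casz1* spans chr4:148804429-148954889, *Rasgrp2* chr19:6399340-6415216 and *Id4* chr13:48261228-48266026, all on the plus strand. Exons of opposite-strand genes overlap those of *Casz1* by 122 bases, of *Rasgrp2* by 265, of *Id4* by 82 and 171 (from 2 genes), and of *Lypd1* by 1202 (*Gpr39*), and because the strand setting of the counting is not given in the sources used here, reads of these stretches may belong to either gene.

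Related markers outside the 10 were taken from lists of the same compartments. Of 7 further striosome markers, 2 were lower and 2 higher in D1-IPs. *Sema5b*, a semaphorin, was lower (-0.66 ± 0.0565 (SE), adjusted p = 1.67e-10), as was *Oprm1*, the mu opioid receptor, named here after its value was seen and just past the limit (-0.59 ± 0.238 (SE), adjusted p = 0.048). *Pdyn* and *Tac1*, precursors of dynorphin and substance P that also mark D1-MSNs, were higher (2.35 ± 0.0891 (SE), adjusted p = 2.42e-18 for *Pdyn* and 0.79 ± 0.0642 (SE), adjusted p = 6.16e-11 for *Tac1*). Of 4 further matrix markers, 1 was called, *Sv2b*, a synaptic vesicle protein, which was higher in D1-IPs (0.69 ± 0.0771 (SE), adjusted p = 2.8e-08). Of 5 shell or ventral markers, *Dlk1* was higher (0.99 ± 0.0972 (SE), adjusted p = 2.61e-09), and *Calcr*, the calcitonin receptor, and *Stard5* were lower (-1.42 ± 0.115 (SE), adjusted p = 6.85e-11 and -0.86 ± 0.0774 (SE), adjusted p = 4.4e-10). Of 2 gradient markers, *Cnr1*, the cannabinoid receptor, was higher (0.86 ± 0.0717 (SE), adjusted p = 1.03e-10). Of 5 further markers of eccentric MSNs, *Nxph4* was higher (1.53 ± 0.14 (SE), adjusted p = 5.75e-10) and none was lower past the fold limit, although *Cacng5* (-0.46 ± 0.0489 (SE), adjusted p = 1.11e-08) and *Col11a1* (-0.41 ± 0.0883 (SE), adjusted p = 0.000421) were lower by less than 1.5-fold. Each list held members in more than 1 of these states, as the 10 genes did.

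Enrichment on tagged ribosomes over the whole tissue was read from IP against input within each line. In the D2 line, 7 of the 10 genes were higher in IPs past both limits (*Tshz1*, *Rasgrp1*, *Calb1*, *Rasgrp2*, *Id4*, *Crym* and *Casz1*), beside 43.6% of 15404 genes called in either direction (1969 higher). In the D1 line, 2 were higher (*Rasgrp1* and *Calb1*), beside 43.1% called in either direction (2119 higher). None of the 10 was called lower in either line. At the adjusted p alone 10 of the 10 passed in the D2 line and 8 in the D1 line, beside 82.7% and 81.9% of all genes, so counts in either direction are near the background. By direction, all 10 were higher in the D2 line, beside 5830 of 15404 genes. In the D1 line 7 were higher and 1 lower, beside 6038 genes higher and 6574 lower. The median log2 fold change of the 10 was 0.72 in the D2 line and 0.24 in the D1 line, beside -0.08 and -0.04 over all genes.

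*Calb1* had the largest D2-line enrichment of the 10. Inputs of the D2 line ran from 129 to 158 CPM with a median of 153 and those of the D1 line from 135 to 195 CPM with a median of 155, below every IP of their line. The log2 fold change of IP over input was 1.09 ± 0.0689 (SE), adjusted p = 4.66e-18 in the D2 line and 0.93 ± 0.07 (SE), adjusted p = 1.22e-15 in the D1 line. *Rasgrp1* had a mean of 509 ± 59.6 CPM (SD, n = 9) in D2-line inputs and 523 ± 53.1 CPM (SD, n = 9) in D1-line inputs, below the IP means given above. Its log2 fold changes were 0.75 ± 0.0575 (SE), adjusted p = 2.59e-15 and 0.71 ± 0.0588 (SE), adjusted p = 2.52e-14, and no IP overlapped with an input of its line. These 2 genes, one used as a matrix marker and one as a striosome marker, were the members enriched in both lines by more than 1.5-fold. *Crym* was enriched by 0.70 ± 0.0807 (SE), adjusted p = 2.2e-10 in the D2 line and by 0.58 ± 0.0823 (SE), adjusted p = 3.71e-08 in the D1 line, where it stayed just below the fold limit and passed it under 14 of 28 alternatives.

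For *Rasgrp2*, *Id4*, *Casz1* and *Tshz1* the 1.5-fold limit was passed in the D2 line and not in the D1 line. *Rasgrp2* had a log2 fold change of 1.06 ± 0.0711 (SE), adjusted p = 2.91e-17 in the D2 line and 0.45 ± 0.0713 (SE), adjusted p = 3.84e-07 in the D1 line. For *Id4* the values were 0.66 ± 0.0585 and 0.24 ± 0.0595 (SE). *Casz1* was at 1.02 ± 0.0938 in the D2 line and -0.19 ± 0.0963 in the D1 line, where its adjusted p was 0.0672. *Tshz1* was at 0.96 ± 0.0622 in the D2 line and -0.02 ± 0.0623 in the D1 line (adjusted p = 0.731): its level ran from 67.02 to 95.6 CPM with a median of 81.8 in D1-IPs and from 77.7 to 96.4 CPM with a median of 80.6 in D1-line inputs. *Otof* went in opposite directions, higher in D2-IPs than their inputs by 0.23 ± 0.0922 (SE), adjusted p = 0.0185 and lower in D1-IPs than theirs (log2 fold change -0.45 ± 0.094 (SE), adjusted p = 4.03e-05), each under 1.5-fold. *Lypd1* was enriched by 0.56 ± 0.0476 in the D2 line and 0.23 ± 0.0484 in the D1 line (SE), and in the D2 line it passed the fold limit under 11 of 30 alternatives, among them the pool as a replicate block (0.59). *Kremen1* was higher in IPs by 0.21 ± 0.0549 in the D2 line and 0.17 ± 0.0559 in the D1 line, the smallest enrichment that passed the adjusted p in both.

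**Figure D3:**
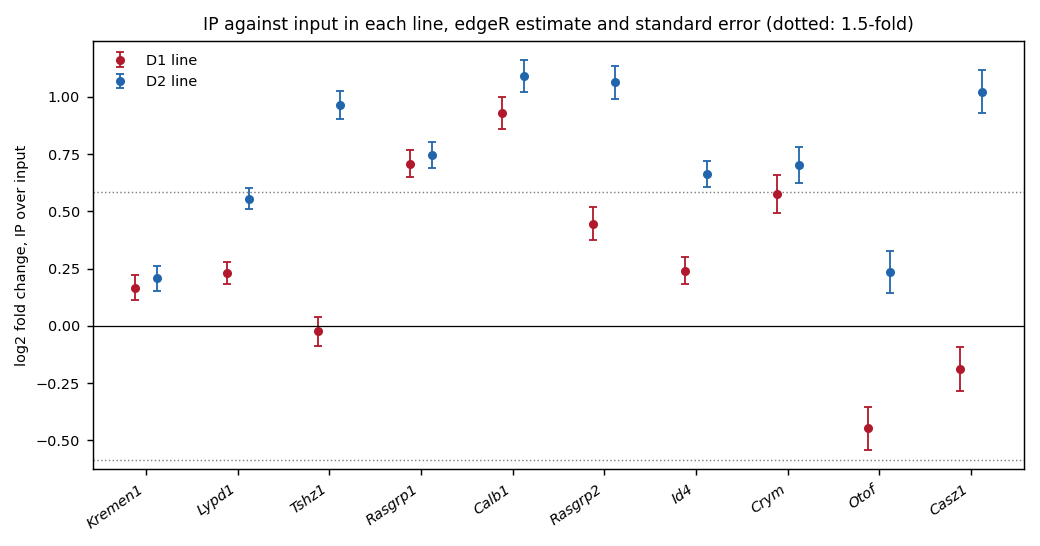
Log2 fold change of IP over input (y axis) for each gene (x axis) in the D1 line and the D2 line, with bars for the standard error and dotted lines at 1.5-fold. Values of the D2 line are above those of the D1 line for all 10 genes, by the widest margins for *Casz1* and *Tshz1*, and nearly meet for *Rasgrp1* and *Kremen1*.

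The difference between the lines in this enrichment was tested itself, and 4 of the 10 genes passed, beside 7.59% of 15404 genes. All had a lower ratio of IP to input in the D1 line. These were *Casz1* (-1.21 ± 0.134 (SE), adjusted p = 5.26e-09), *Tshz1* (-0.99 ± 0.087 (SE), adjusted p = 1.79e-11), *Otof* (-0.68 ± 0.132 (SE), adjusted p = 0.00013) and *Rasgrp2* (-0.62 ± 0.0987 (SE), adjusted p = 7.92e-06). *Rasgrp2* missed a limit when only control libraries were used (adjusted p = 0.0770), and without D1 Con input replicate 1 (-0.56) or D1 Res input replicate 2 (-0.58). *Id4* (-0.42 ± 0.0825 (SE), adjusted p = 0.000147) and *Lypd1* (-0.33 ± 0.0672 (SE), adjusted p = 0.000302) passed the adjusted p by less than 1.5-fold, which made 6 of the 10 at the adjusted p alone, beside 25.5% of all genes. The comparison shares its IPs with that of D1-IP against D2-IP and is no separate evidence for them. Between the inputs of both lines, 0 of the 10 genes passed by edgeR or DESeq2, beside 0.0266% of 15063 genes by edgeR (4 genes, and 0.0266% at the adjusted p alone). DESeq2 put 16 genes past the adjusted p. At an unadjusted p under 0.05 edgeR and DESeq2 each gave 1 of the 10, beside 657 of 15063 genes by DESeq2. That gene was *Rasgrp2*, at 0.20 ± 0.087 (SE) in inputs of the D1 line over the D2 line, adjusted p = 0.988. *Tshz1* ran from 77.7 to 96.4 CPM with a median of 80.6 in D1-line and from 70.9 to 97.5 CPM with a median of 80.97 in D2-line inputs, with a log2 fold change of 0.04 ± 0.0584 (SE), adjusted p = 0.993.

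Whether social defeat moved these markers was asked next, at the unadjusted p under 0.05 used for the stress groups, with the adjusted p beside it. No gene of the 10 passed an adjusted p under 0.05 in any stress comparison of D1-IPs, D2-IPs or inputs, by edgeR or by DESeq2. In D1-IPs of Sus against Con, 3 of the 10 were lower at the unadjusted p, *Id4*, *Crym* and *Lypd1*, beside 5.34% of 14224 genes in both directions. At the adjusted p the share of all genes was 0%, that is 0 genes by either tool, beside 759 by edgeR and 783 by DESeq2 at the unadjusted p. The median log2 fold change of the 10 was -0.14, beside a median that rounded to 0 over all genes, and 9 of the 10 values were below 0.

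*Crym* was at 239, 189, 188 and 203 CPM in D1 Con, 153, 196, 199.7 and 212 in D1 Res and 163, 153, 184, 171 and 146 in D1 Sus. Every Sus library lay below every Con library, and Res overlapped with both. The log2 fold change of Sus over Con was -0.33 ± 0.121 (SE, edgeR unadjusted p = 0.0115, adjusted p = 0.846), and without D1 Con replicate 1, the highest library, it was -0.24 with an unadjusted p of 0.0721. *Id4* was at 157, 121, 143 and 136 CPM in Con, 114, 128, 123 and 127 in Res and 113, 116, 115, 111 and 124 in Sus, with overlap between Con and Sus. Its log2 fold change was -0.27 ± 0.0858 (SE, edgeR unadjusted p = 0.00401, adjusted p = 0.846), and the unadjusted p stayed under 0.05 in all 15 alternatives of the fit. *Lypd1* was at 162, 182, 136 and 168 CPM in Con and 152, 145, 131, 152 and 152 in Sus, a log2 fold change of -0.15 ± 0.0682 (SE, edgeR unadjusted p = 0.0386, adjusted p = 0.846) that missed the unadjusted limit in 7 of 15 alternatives. Of these, 5 left out 1 library, D1 Con replicate 1, 2 or 4 or D1 Sus replicate 2 or 3, with unadjusted p from 0.0609 to 0.245. In the same comparison 4 of 4 D2-MSN markers were lower in D1 Sus at the unadjusted p, 0 of 4 D1-MSN and 0 of 6 cortical markers passed, and 1 of 5 astrocyte markers was higher. The summed level of the D2 list was 2369.8 to 3470.2 CPM in D1 Con and 2061 to 2607 in D1 Sus, that of the cortical and glutamatergic list 422 to 1109.7 and 678 to 1416 and that of the astrocyte list 45.7 to 76.2 and 46.3 to 92.2. Their part in the 3 differences was not tested.

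In D1-IPs of Res against Con, *Kremen1* was higher at the unadjusted p, beside 2.11% of genes, and 0.00703% of genes (1 gene, no member) passed the adjusted p. It was at 20.9, 21.4, 18.2 and 16.9 CPM in Con, 23.97, 22.7, 21.3 and 22.03 in Res and 22.1, 21.4, 21.1, 19.2 and 20.99 in Sus, so that 1 Con library reached into the Res range. The log2 fold change was 0.22 ± 0.0805 (SE, edgeR unadjusted p = 0.012, adjusted p = 1.00), and without D1 Con replicate 4, the lowest, it was 0.16 with an unadjusted p of 0.0610. In D1-IPs of Sus against Res none of the 10 passed at the unadjusted p, beside 4.23% of genes, and 0% passed the adjusted p. *Calb1* was at 300.0, 317, 329 and 354 CPM in Res and 262, 284, 299, 298 and 263 in Sus, without overlap, with a log2 fold change of -0.21 ± 0.112 (SE, edgeR unadjusted p = 0.0687, adjusted p = 0.999).

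In D2-IPs no gene of the 10 passed at the unadjusted p in Sus against Con, Res against Con or Sus against Res, beside 3.68%, 3.02% and 1.66% of all genes and 0% at the adjusted p in each. DESeq2 gave 0 of the 10 in each as well. The value nearest the limit was that of *Otof* in Sus against Con, with libraries at 93.98, 85.4, 76.6, 91.1 and 89.6 CPM in Con, 57.4, 89.9, 77.6, 78.1 and 76.9 in Res and 86.1, 68.2, 85.3, 70.3 and 67.9 in Sus and a log2 fold change of -0.21 ± 0.117 (SE, edgeR unadjusted p = 0.0878, adjusted p = 0.999). *Crym* in D2-IPs was at 226, 184, 219, 241 and 178 CPM in Con and 175, 179, 241, 207 and 178 in Sus (-0.10 ± 0.115, SE), and *Id4* at 149, 171, 188, 186 and 173 in Con and 163, 165, 156, 178 and 138 in Sus (-0.11 ± 0.0808, SE). Whether D1- and D2-IPs differed in their response was tested as an interaction, and none of the 10 passed at the unadjusted p by either tool in Sus against Con, Res against Con or Sus against Res, beside 1.82%, 2.36% and 2.03% of all genes and 0% at the adjusted p. For *Crym* the difference between D1 and D2 in Sus against Con was -0.23 ± 0.167 (SE, edgeR unadjusted p = 0.177, adjusted p = 1.00), so the lower D1 Sus level was not shown to be particular to D1-IPs.

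**Figure D4:**
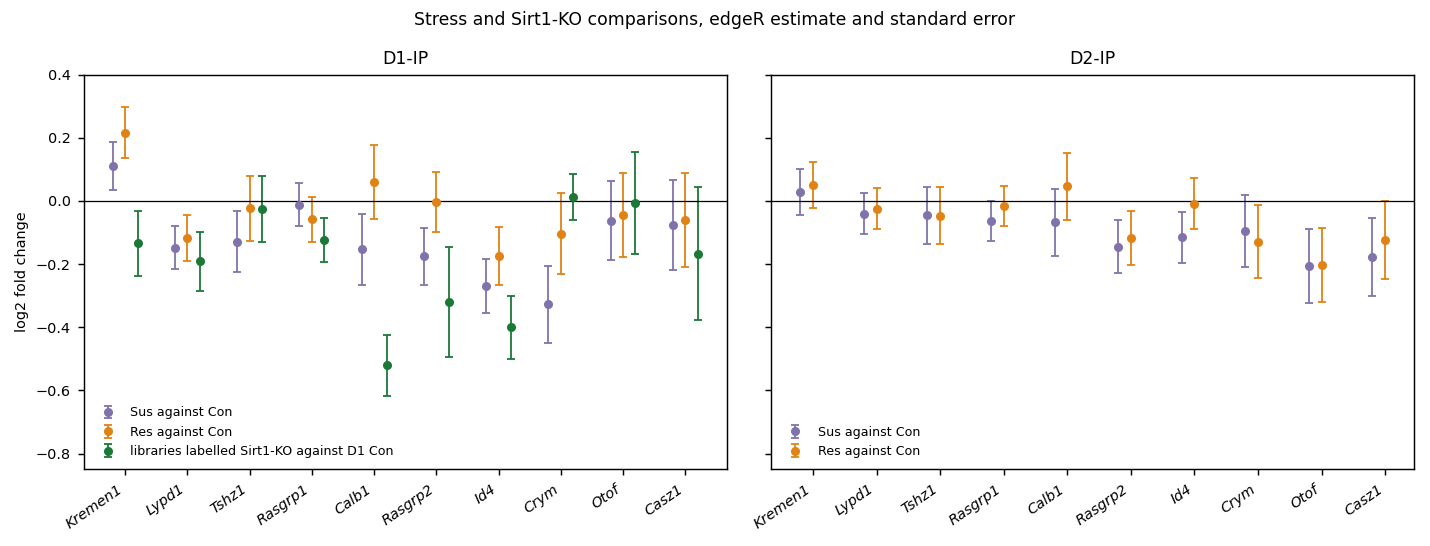
Log2 fold change (y axis) of Sus over Con and Res over Con for each gene (x axis) in D1-IPs (left) and D2-IPs (right), with the libraries labelled Sirt1-KO over D1 Con in the left panel and bars for the standard error. *Crym* and *Id4* are lowest in D1-IPs of Sus against Con, and *Calb1* and *Id4* in the libraries labelled Sirt1-KO.

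In the inputs, with the line as a covariate, none of the 10 genes passed at the unadjusted p in Sus against Con, Res against Con or Sus against Res by edgeR or DESeq2, beside 4.51%, 3.25% and 5.47% of 15063 genes by edgeR and 0% at its adjusted p in each (DESeq2 gave 3, 1 and 0 genes). Log2 fold changes of the 10 ran from -0.11 to 0.09 in Sus against Con and from -0.13 to 0.02 in Res against Con. *Crym*, for instance, was at 151, 126 and 109 CPM in D1 Con and 117, 121 and 116 in D1 Sus inputs, and its log2 fold change over both lines was -0.07 ± 0.091 (SE, edgeR adjusted p = 0.979).

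The last comparison set the libraries labelled Sirt1-KO against D1 Con, both D1-IPs of undefeated mice. The paper does not describe the labelled libraries, and their run and cohort are not given. Genotype therefore cannot be told apart from run or cohort in the values below. *Sirt1* itself was at 13.1, 16.6, 14.8 and 14.4 CPM in D1 Con and 15.2, 16.2, 13.2 and 10.2 in the libraries labelled Sirt1-KO, which overlapped. Counts over the whole gene include exons outside a floxed stretch, so they do not check the deletion, and the groups are named here by their labels. None of the 10 genes passed a fold change over 1.5 with an adjusted p under 0.05, beside 0.749% of 13626 genes. *Calb1* was the 1 member under 0.05 at the adjusted p alone, beside 1.66% of all genes, and was lower in the libraries labelled Sirt1-KO.

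*Calb1* was at 343, 265, 323 and 250.4 CPM in D1 Con and 205, 199, 194 and 226 in the libraries labelled Sirt1-KO. All of the latter lay below all of the former. The log2 fold change was -0.52 ± 0.0965 (SE), adjusted p = 0.0284, which is 1.43-fold lower and just within the fold limit, and without D1 Con replicate 4 it passed that limit at -0.59. The adjusted p of *Calb1* was over 0.05 without D1 Con replicate 1 or 3, or without replicate 1, 3 or 4 of the libraries labelled Sirt1-KO (0.0532 to 0.101), and 8.1e-05 by DESeq2. *Id4* was at 148, 115, 135 and 129 CPM in D1 Con and 102, 82.5, 99.6 and 116 in the labelled libraries, which overlapped at a single library. Its log2 fold change was -0.40 ± 0.101 (SE), adjusted p = 0.0682 by edgeR, and DESeq2 gave it an adjusted p of 0.00822. The edgeR adjusted p of *Id4* was 0.0382 with all genes of at least 1 count kept and 0.000215 with the replicate block. It was 0.0122 without replicate 5 of the labelled libraries and up to 0.188 when another library was left out. The remaining matrix marker, *Rasgrp2*, was at 167, 115, 120.4 and 104 CPM in D1 Con and 99.4, 81.5, 86.1 and 139 in the labelled libraries (-0.32 ± 0.174 (SE), adjusted p = 0.378). Without D1 Con replicate 1 its value was -0.16, and without replicate 5 of the labelled libraries it was -0.51 (edgeR adjusted p = 0.0446). *Crym* was at 226, 179, 178 and 193 and 199.7, 195, 198 and 191 CPM, with a log2 fold change of 0.01 ± 0.0727 (SE), adjusted p = 0.953. The other 6 genes had values from -0.19 for *Lypd1* to -0.01 for *Otof*, with adjusted p of 0.319 or more. In the same comparison 1 of 3 cholinergic markers tested was lower past both limits, and none of the 4 PV, SST and NPY interneuron markers and none of the D1-MSN, D2-MSN, cortical or astrocyte markers was called. The D1 list summed to 1102 to 1351 CPM in D1 Con and 819 to 1021 in the labelled libraries, the D2 list to 2254 to 3282 and 1628 to 2576, and the cortical and glutamatergic list to 399 to 1051 and 879 to 1572. The cholinergic sum was 9.41 to 11.2 and 4.00 to 8.18 CPM and that of the PV, SST and NPY interneuron list 101 to 133 and 139 to 166, each without overlap, as for the D1 list. Their part in the *Calb1* difference was not tested. Of the shell or ventral markers, 2 of 5 were called lower, *Calcr* (-0.88 ± 0.15 (SE), adjusted p = 0.0196) and *Stard5* (-0.70 ± 0.0909 (SE), adjusted p = 0.00633), and of the 7 further striosome, 4 further matrix, 2 gradient and 5 eccentric markers none was called.

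Finally, the 10 genes were compared with each other across libraries of the same group, as the correlation of log2 CPM over the 28 IPs after group means were subtracted. Of 45 pairs, 2 passed an adjusted p under 0.05 (100000 permutations of libraries within groups, two-sided, Benjamini-Hochberg over the 45 pairs). *Calb1* and *Id4*, both used as matrix markers, rose and fell together (r = 0.75, permutation p = 0.00011, adjusted p = 0.00495, and rho = 0.69, permutation p = 0.00051, adjusted p = 0.0229). The correlation was 0.57 in the 13 D1-IPs and 0.82 in the 15 D2-IPs, and 0.66 without the 2 libraries farthest from the median of the first gene. *Tshz1* and *Rasgrp2* were the other pair (r = 0.57, permutation p = 0.00125, adjusted p = 0.0281, and rho = 0.62, permutation p = 0.00144, adjusted p = 0.0324), with 0.68 in D1-IPs, 0.49 in D2-IPs and 0.54 without the 2 farthest libraries. This pair joins a striosome and a matrix marker. *Casz1* and *Otof* did not pass (r = 0.43, permutation p = 0.0337, adjusted p = 0.204), nor did *Rasgrp1* and *Id4* (r = 0.63, permutation p = 0.00546, adjusted p = 0.0819). Libraries share their depth and the makeup of their tissue, which all pairs carry. How often pairs of other genes reach such values in these IPs was not computed, so neither pair was shown to be particular to these markers. The lowest value was that of *Calb1* and *Casz1* (r = -0.43, permutation p = 0.0132, adjusted p = 0.119).

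**Figure D5:**
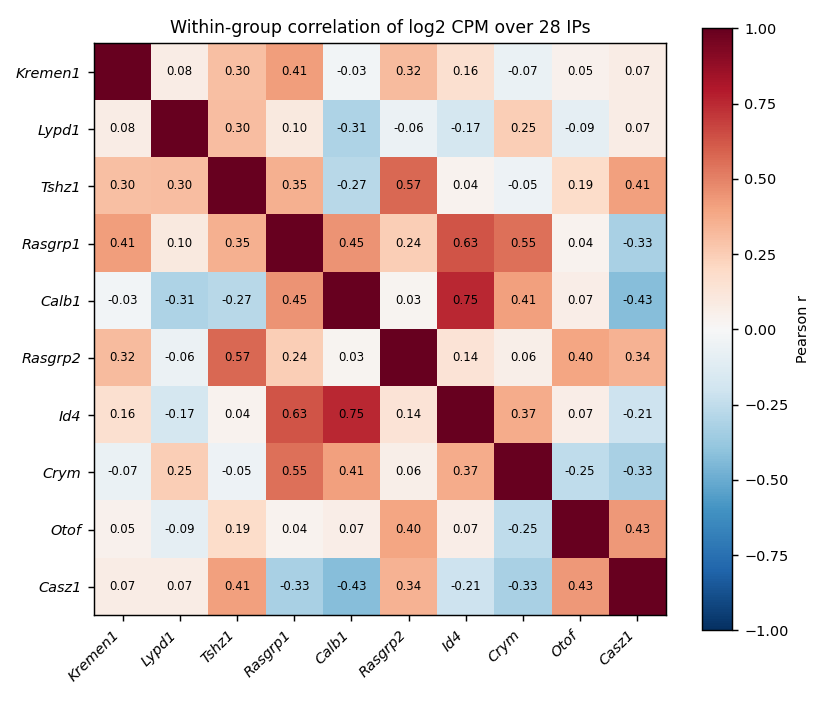
Pearson correlation (colour and number) of log2 CPM between each pair of the 10 genes over 28 IPs after group means were subtracted. The cell of *Calb1* and *Id4* holds 0.75 and that of *Tshz1* and *Rasgrp2* 0.57, and the lowest, *Calb1* and *Casz1*, holds -0.43.

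Over the same 28 IPs and all 14224 genes tested, the genes whose within-group pattern was most like each of the 10 were listed with r as a description and no test, since the best of so many is high by selection. Closest to *Calb1* were *Itfg1* (r = 0.86) and *Dach1* (0.83), and *Dach1* was also second for *Id4* (0.88) after *Dgkb* (0.90). *Crym* had *Rab40b* (0.91) and *Arf3* (0.87), *Rasgrp2* had *Gripap1* (0.90) and *Penk*, the enkephalin precursor of D2-MSNs (0.89), and *Otof* had *Wfs1*, itself on the gradient list (0.82), and *Gaa* (0.81). For *Tshz1* they were *Kctd1* (0.86) and *Arhgef2* (0.76), for *Rasgrp1* *Tcea1* and *Gnb4* (both 0.82), and for *Casz1* *Nfatc2* (0.76) and *Pon2* (0.74). *Kremen1* was most like *Ptprn* (0.78), and *Lypd1* most like *Sumo3* (0.73) and *9830166K06Rik* (0.65), the loosest match of the 10. No member of the 10 was among the 2 closest genes of another.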

How the data were processed

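RNA sequencing was carried out on HA immunoprecipitates (IP) and inputs of mouse NAc. Per the submitters' processing notes and the methods, reads were trimmed with cutadapt, checked with FastQC, aligned with STAR to mm10 and counted per gene with HTSeq, and the authors tested with DESeq2; versions, annotation and strand setting are not given in the sources used here. The deposited values were raw counts per gene, made by the authors before any normalization. The 5 rows that name no gene (18.0 to 28.3% of reads in IPs, 35.9 to 40.0% in inputs, 19.2 to 23.8% in libraries labelled Sirt1-KO) were left out, as were 2 columns that could be given no sample. In the Sirt1-KO table, 5 symbols listed more than once were taken once, and its D1 Con columns were the same as in the main table. All 76 replicate pairs differed by more than sampling noise.

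Counts were fitted with edgeR 4.0.16 (R 4.3.3; TMM scaling, default expression filter with a minimum count of 10, quasi-likelihood test, Benjamini-Hochberg adjustment over all genes tested), with 1 mean per group in separate models for IPs (28 libraries), IPs with inputs (46), inputs (18, with the line as covariate for stress) and Sirt1-KO (8). Line, IP and Sirt1-KO comparisons needed an adjusted p under 0.05 together with more than 1.5-fold, stress comparisons an unadjusted p under 0.05. Sus against Con and Res against Con share their Con libraries. P-values measure the spread between pools of 2 mice. Per the paper, libraries were run in 4 sets and came from several defeat cohorts, which the labels do not assign, so no batch term could be used. For the libraries labelled Sirt1-KO the paper gives neither. Lengths came from GENCODE vM21. Depth per library was 18384265 counts or more, and the lowest count of a member was 102. Scripts were tested on simulated data.

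The members and gene lists were chosen with earlier results of these data known. All 10 members were named in every comparison or given by range; from related marker lists, up to 3 genes with the largest change between D1-IP and D2-IP were named, and for likeness the 2 genes with the highest correlation of log2 CPM (prior count 2). The second such gene of *Kremen1* and the summed level of 1 marker list are not reported here. Alternatives were RLE scaling, other filters, DESeq2 1.42.0, other thresholds, fewer libraries, a replicate block and each library left out. IP and input of one pool share their mice, but deviated together (r over 0.1) in 3 of 18 pairs (median r 0.03). What a number shared across groups stands for is not given in the labels. IPs numbered 5 had r of 0.31 for D2 Con and D2 Sus, 0.24 for D1 Sus and D2 Sus, and 0.22 for D1 Sus and D2 Con. Their other values were 0.19 for D2 Con and D2 Res, 0.16 for D2 Res and D2 Sus, and 0.09 for D1 Sus and D2 Res. The median over all 66 such IP pairs was 0.08. Their reads naming no gene were 24.5% in D1 Sus, 26.3% in D2 Con, 27.2% in D2 Res and 28.3% in D2 Sus, beside 27.0% in D2 Con replicate 2. Whether these libraries share a run was not tested.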

Additional observations from a re-analysis of the deposited data

Results flagged for a closer look

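*Casz1* in D2 Res IP replicate 2 was at 15.3226 CPM, apart from the other 4 D2 Res IPs, which lay close together at 13.3 to 13.4 CPM: the gap made up 0.948 of the range of the group, above the critical value of 0.71. The value lay within the range of the D2 Con IPs, 11.5 to 17.7 CPM. Of 70 groups of libraries tested this way (10 genes in 7 groups) this was the only one, which is fewer than the about 1 in 20 that chance alone gives.

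For 4 of the 10 genes the enrichment of IP over input differed between the D1 and the D2 line by a test of the difference itself, beside 7.59% of 15404 genes. The difference in log2 fold change, D1 line minus D2 line, was -1.21231 for *Casz1*, -0.988427 for *Tshz1*, -0.68229 for *Otof* and -0.617705 for *Rasgrp2*, so that the ratio of IP to input was lower in the D1 line for each. *Otof* was lower in D1-IPs than in their inputs, and *Casz1* and *Tshz1* did not differ from inputs there at the adjusted p. *Rasgrp2* missed a limit with control libraries only (edgeR adjusted p = 0.0770), and without D1 Con input replicate 1 or D1 Res input replicate 2.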

How the results depend on the processing

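No call of a member changed direction (0 of 706 alternative values); among members not called 205 values changed sign. With an adjusted p and no fold limit, 6 members in place of 2 were called in D1-IP against D2-IP (40.8% of all genes), 6 each within Con, Res and Sus (14%, 17.5% and 17.6%), 8 in D1-IP against input (81.9%, so near the background for counts in either direction), and 1 (*Calb1*) in Sirt1-KO (1.66%). DESeq2 put 741 genes past the adjusted p in Sirt1-KO and edgeR 226. With an adjusted p in the stress comparisons, 0 members were called in D1-IP Sus or Res against Con. With only the 2 groups compared, 2 were called in D1-IP Res against Con (*Kremen1*, *Id4*; 2.14% of all genes), 3 in D1-IP Sus against Res (*Calb1*, *Crym*, *Rasgrp2*; 5.32%) and 2 in D2-IP Sus against Con (*Otof*, *Rasgrp2*; 2.80%), while D1-IP Sus against Con lost *Lypd1* (2 in place of 3; 6.78%). The replicate block gave 4 in D1-IP Sus against Con (*Rasgrp2* added, 6.19% of all genes), 2 in D1-IP Res against Con (*Id4* added, 2.95%), 1 (*Rasgrp2*) in D1-IP Sus against Res (5.17%) and 1 (*Calb1*, log2 fold change -0.60) in Sirt1-KO (4.35%). In that Sirt1-KO fit *Id4* was at -0.54 (edgeR adjusted p = 0.000215) and *Rasgrp2* at -0.53 (edgeR adjusted p = 0.000839), both under the fold limit. The labels do not say whether the numbers pair these samples (23 of 66 IP pairs and 0 of 3 Sirt1-KO pairs with r over 0.1). The block by pool gave 8 members in place of 7 in D2-IP against input (*Lypd1* added) and changed no other call of IP against input. Leaving out 1 library gave 1 to 4 called members in D1-IP Sus against Con (1, *Id4*, without D1 Con replicate 1), 0 to 2 in D1-IP Res against Con (0 without D1 Con replicate 4, 2 without replicate 1, 2 or 3, where *Rasgrp2*, *Id4* or *Lypd1* was added, *Rasgrp2* at 0.16 with its sign turned), 0 to 1 in D1-IP Sus against Res (1 without D1 Res replicate 1 or D1 Sus replicate 3 or 5), 0 to 2 in D2-IP Sus against Con (2 without D2 Con replicate 3, 1 without D2 Sus replicate 1), 0 to 1 in D2-IP Res against Con (1 without D2 Res replicate 2), 0 to 1 in D2-IP Sus against Res (1 without D2 Res replicate 5), 0 to 1 in the D1 and D2 difference of Sus against Con and of Res against Con, 0 to 1 in inputs of Sus and of Res against Con, and 0 to 1 in Sirt1-KO (1 without D1 Con replicate 4). With all libraries the shares of all genes called were 5.34%, 2.11% and 4.23% in these D1-IP comparisons and 3.68%, 3.02% and 1.66% in the D2-IP ones. They were 1.82% and 2.36% for the D1 and D2 differences, 4.51% and 3.25% in inputs and 0.749% in Sirt1-KO. Shares with 1 library left out are not given here, so these counts were not set against their own background. *Id4* in D2-IP against input fell under the fold limit (0.57) with a filter at a mean of 50 counts. The cause of these changes was not tested. The number of correlated pairs was 2 in each alternative. Groups held 3 to 5 libraries, each a pool of 2 mice, which limits the stress and Sirt1-KO comparisons.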
